A study of Ovis aries with 16 samples.

Results

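MIR148A and MIR152 are the sheep genes of 2 closely related microRNAs (miRNAs), short RNAs that pair with messenger RNAs and lower their translation and stability. The 2 rows were taken by name from the miRNA table, which lists 105 miRNAs, out of 4920 rows in 4 tables of small and long non-coding RNA. They were followed through all 16 libraries of the study, by tissue and by treatment. The study asked how exposure before birth to bisphenol A (BPA), which is used to make plastics and can act on oestrogen receptors, affects the adult liver and muscle transcriptome.

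Per the labels, the animals were 8 female Suffolk sheep. Pregnant ewes carrying 4 of them were injected daily under the skin with 0.5 mg/kg BPA in corn oil between gestation days 30 and 90, and those carrying the other 4 received corn oil alone. Tissue was taken from all 8 as adults of about 21 months, fasted for 48 h. All had also received 2 prostaglandin injections 11 days apart, the second of them 24 h before, so controls and BPA animals share the fast and the hormone treatment. Each animal gave a liver library (tip of the left lobe) and a library of the vastus lateralis, a thigh muscle, which makes 4 libraries in each of 4 groups. Libraries are named below by treatment, tissue and animal number.

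The miR-148/152 family is named for a shared seed, the short stretch near the 5′ end of a miRNA that pairs with its targets. The sequences were not analysed here. In human and mouse cells, both miRNAs are known to target DNMT1, the enzyme that maintains DNA methylation. In human and mouse liver, miR-148a is among the most abundant miRNAs of hepatocytes and also targets ABCA1, which carries out cholesterol efflux. In mouse myoblasts miR-148a promotes differentiation through ROCK1. In the RefSeq gene table for the sheep assembly ARS-UI_Ramb_v3.0, MIR152 lies inside COPZ2, a gene for a coat protein subunit of transport vesicles, on chromosome 11. MIR148A lies inside no listed gene and sits on chromosome 4 between a long non-coding RNA gene and a protein-coding gene. The rows name the precursor, so the arms cannot be separated, and reads that fit both near-identical mature miRNAs may have been divided between them by the authors' counting. The third family member, miR-148b, was not analysed here.

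The reads assigned to listed miRNAs ranged from 94393 to 240815 in control livers, 578150 to 1383538 in BPA livers, 471691 to 559705 in control muscles and 596919 to 1044886 in BPA muscles. Depth was thus higher in BPA than in control libraries, with no overlap, in both tissues. The tissue labels matched their markers. MIR194, a hepatocyte miRNA, had a mean of 9357 normalized counts in livers and 142 in muscles, and MIR133, of striated muscle, a mean of 266 in livers and 321523 in muscles. Only 1 of 4 hepatocyte names and 1 of 6 striated muscle names on the marker lists are rows of the table. The library code in the labels ran from 65 to 79 in 10 libraries, from 95 to 97 in 3 BPA libraries and lay in a higher range in 3 control livers, and the labels do not say what it stands for.

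MIR148A was a leading miRNA of the liver and a minor one of muscle. Its deposited normalized counts in control livers were 36621 (animal 902), 37572 (908), 39075 (924) and 50982 (928). In BPA livers they were 31377 (910), 31661 (918), 42337 (977) and 56888 (984). The BPA livers lay on both sides of the controls, with 910 and 918 below all 4 and 984 above all 4. In control muscles the normalized counts were 1617 (902), 1461 (908), 1182 (924) and 1894 (928), and in BPA muscles 1811 (910), 1432 (918), 1494 (977) and 1166 (984). The treatment groups overlapped in muscle too, while every liver stood far above every muscle. The group means were 41062 ± 6690 (SD, n = 4) in control livers, 40566 ± 12018 (n = 4) in BPA livers, 1538 ± 297 (n = 4) in control muscles and 1476 ± 265 (n = 4) in BPA muscles. In that order the control and BPA groups of a tissue are neighbours that did not differ beyond their spread.

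MIR152 was the lesser member in every library. Its normalized counts in control livers were 3092 (902), 2537 (908), 3111 (924) and 2918 (928), and in BPA livers 1776 (910), 2266 (918), 3710 (977) and 3637 (984). As for MIR148A, the 2 lowest livers were BPA 910 and 918, and here the other two BPA livers were the highest. In control muscles the normalized counts were 346 (902), 376 (908), 316 (924) and 343 (928), and in BPA muscles 384 (910), 324 (918), 292 (977) and 166 (984). Muscle 984 stood below the rest, and the remaining BPA muscles overlapped the controls. The group means were 2915 ± 266 (SD, n = 4) in control livers, 2847 ± 975 (n = 4) in BPA livers, 345 ± 24.7 (n = 4) in control muscles and 291 ± 92.0 (n = 4) in BPA muscles.

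**Figure D1:**
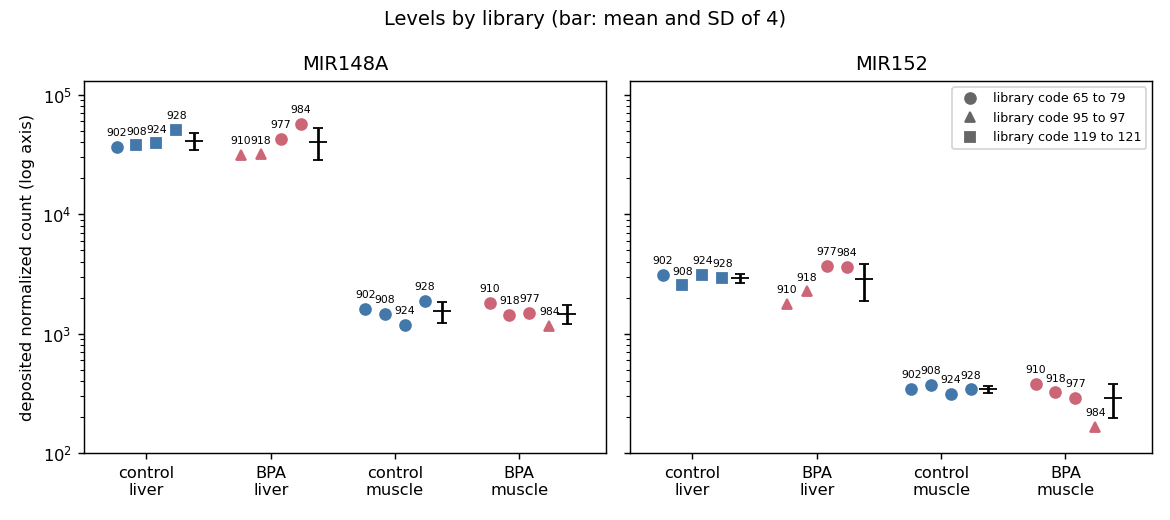
Deposited normalized counts (log axis) of MIR148A (left) and MIR152 (right) in each library, with controls in blue, BPA in red, animal numbers above the points, point shape for the range of the library code, and bars for the mean and SD of 4 libraries. MIR148A lies between 31377 and 56888 in livers and between 1166 and 1894 in muscles, and MIR152 between 1776 and 3710 in livers and between 166 and 384 in muscles.

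The reads behind these values set their precision. MIR148A had 10469 to 118240 reads in a liver and 899 to 2319 in a muscle. MIR152 had 884 to 7623 reads in a liver and 176 to 524 in a muscle, where the counting error was 4.37% to 7.54% of the value. Sequencing counts without molecular identifiers are not independent molecules, so these errors and the intervals below cover counting error only.

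As a share of miRNA reads, a measure that uses no size factor, the 2 members together made up 12.5% ± 2.67 (SD, n = 8) of liver and 0.303% ± 0.0644 (n = 8) of muscle miRNA reads. A share depends on the other miRNAs of the library, so these 2 values are not a scale-free tissue contrast. Scaled to miRNA reads, the muscle minus liver log2 difference was -5.54 for MIR148A and -3.97 for MIR152, where the median over all miRNAs was -1.53. MIR148A ranked between 1st and 4th of the 105 miRNAs in livers and between 26th and 31st in muscles. It was the most abundant miRNA of BPA liver 984, with 16.5% of the reads (exact binomial 95% interval 16.4 to 16.6), and it took 8.55% in BPA liver 910. MIR152 ranked between 18th and 30th in livers and between 37th and 39th in muscles. Its share in BPA muscle 984 was 0.0295% (0.0253 to 0.0342), an interval below that of each other muscle, the nearest of which starts at 0.0425%.

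Between tissues, both members were lower in muscle than in liver in the fit across all 76 tested miRNAs. On the deposited scale the muscle minus liver difference of MIR148A was -4.75 ± 0.14 log2 units (SE, 8 livers and 8 muscles, 95% interval -5.05 to -4.45, limma adjusted p = 4.14e-16), which is a level 26.9-fold higher in liver. For MIR152 it was -3.18 ± 0.18 (95% interval -3.56 to -2.80, limma adjusted p = 6.32e-12), 9.05-fold higher in liver. In this comparison 82.9% of tested miRNAs passed the threshold and 60.5% passed it as lower in muscle, with a median of -0.73 over all tested, so a pass is near the background. By size of the difference MIR148A was 4th and MIR152 11th of the 76.

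The size factors had been set within each tissue, which offsets the deposited muscle minus liver differences by -0.59 log2 units against a common scale. When all 16 libraries were rescaled together by median of ratios, the differences were -4.16 for MIR148A (17.9-fold higher in liver, limma adjusted p = 3.89e-15) and -2.59 for MIR152 (6.03-fold, limma adjusted p = 4.04e-10), against a median of -0.14 over all miRNAs. After this rescaling 57 of 75 tested miRNAs passed in either direction. In bulk tissue, fewer cells of a type and less RNA per cell cannot be told apart. Markers of other cell types also moved between the tissues on the deposited scale. MIR150, the 1 of 4 leukocyte names in the table, lay between 199 and 549 normalized counts in livers and between 1368 and 2760 in muscles. MIR143 and MIR199A, 2 of 4 fibroblast and smooth muscle names, summed to between 26709 and 52968 in livers and between 7999 and 28471 in muscles. Both passed as lower in muscle on the deposited scale, and neither passed after rescaling. MIR200A, MIR200B and MIR200C, 3 of 6 epithelial names, summed to between 482 and 1965 in livers and between 36.6 and 103 in muscles. All 3 passed as lower in muscle on the deposited scale, with differences of -5.91, -3.84 and -1.43, and 2 of 3 did after rescaling. MIR221, the 1 of 3 endothelial names in the table, was at -0.64 (limma adjusted p = 0.0022) and did not pass after rescaling. The 3 erythroid names were not analysed here. The part of these cell types in the tissue difference was not tested.

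Both members passed as lower in muscle in each treatment group taken alone. In control animals the difference was -4.74 for MIR148A (26.8-fold higher in liver, limma adjusted p = 2.01e-13) and -3.07 for MIR152 (8.42-fold, limma adjusted p = 3.78e-09), where 47.4% of tested miRNAs passed as lower in muscle. In BPA animals the difference was -4.75 for MIR148A (limma adjusted p = 1.95e-13) and -3.28 for MIR152 (9.72-fold, limma adjusted p = 1.47e-09), where 55.3% passed as lower. The test of the difference between these is the interaction given further on.

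Muscle kept relatively more of MIR152 than of MIR148A. The mean muscle level was 3.69% of the liver level for MIR148A and 11.0% for MIR152 on the deposited scale. The number of MIR148A reads per MIR152 read within a library does not depend on any size factor, and the 2 precursors are close in length, at 68 and 69 nt. It was 11.8 (902), 14.8 (908), 12.6 (924) and 17.5 (928) in control livers and 17.7 (910), 14.0 (918), 11.4 (977) and 15.6 (984) in BPA livers. In muscle it was 4.67 (902), 3.89 (908), 3.75 (924) and 5.53 (928) in controls and 4.72 (910), 4.43 (918), 5.12 (977) and 7.05 (984) in BPA animals. The lowest liver stood above the highest muscle, and the ratio was higher in the liver in 8 of 8 animals, with means of 14.4 ± 2.41 (SD, n = 8) in liver and 4.89 ± 1.05 (n = 8) in muscle. The treatment groups overlapped in both tissues: the ratio was 14.2 ± 2.54 (n = 4) in control and 14.7 ± 2.65 (n = 4) in BPA livers, and 4.46 ± 0.821 (n = 4) in control and 5.33 ± 1.18 (n = 4) in BPA muscles. The highest muscle ratio was that of BPA muscle 984, the library with the fewest MIR152 reads.

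**Figure D2:**
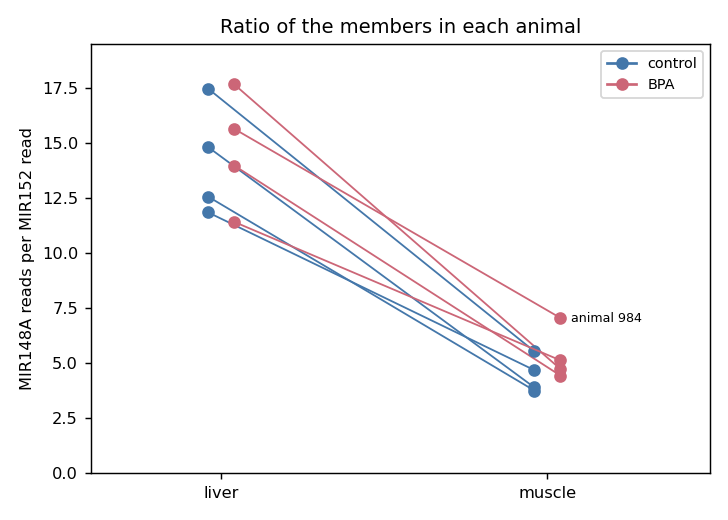
Number of MIR148A reads per MIR152 read in the liver and the muscle of each animal, with controls in blue and BPA in red and a line joining the tissues of an animal. All 8 lines run downward from liver, between 11.4 and 17.7, to muscle, between 3.75 and 7.05.

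Prenatal BPA was not associated with a detectable change of either member in liver. The BPA minus control difference was -0.05 ± 0.20 log2 units for MIR148A (SE, 4 against 4 libraries, limma adjusted p = 0.9080), a fold of 0.967 with a 95% interval of 0.719 to 1.30. For MIR152 it was -0.10 ± 0.26 (SE, limma adjusted p = 0.9065), a fold of 0.935 with an interval of 0.637 to 1.37. In the same fit 11.5% of the 78 tested miRNAs passed the threshold, and the median difference over all of them was 0.05. The intervals leave room for changes of up to about those folds, so the members were not shown to be alike between treatments. With 1 size factor per library over all 4 tables the liver differences were 1.42 for MIR148A (limma adjusted p = 8.81e-04) and 1.37 for MIR152 (limma adjusted p = 0.0092). But that scaling moved the median over all miRNAs to 1.51 and called 68 of 82 tested, and relative to that median the members were at -0.10 and -0.15.

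In muscle the difference was -0.06 ± 0.17 for MIR148A (SE, 4 against 4 libraries, limma adjusted p = 0.8696), a fold of 0.961 with a 95% interval of 0.746 to 1.24. For MIR152 it was -0.31 ± 0.23 (SE, limma adjusted p = 0.8407), a fold of 0.809 with an interval of 0.579 to 1.13. Without BPA muscle 984 the MIR152 difference was -0.06, so that library carries most of it. None of the 70 miRNAs tested with limma passed in muscle (0%), and 3 had an unadjusted p under 0.05. None passed with edgeR (65 tested, 3 with an unadjusted p under 0.05) or DESeq2 (100 tested, 4).

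The BPA difference in muscle minus that in liver was -0.01 ± 0.29 for MIR148A (SE, 95% interval -0.61 to 0.60, limma adjusted p = 0.9876) and -0.21 ± 0.36 for MIR152 (95% interval -0.96 to 0.55, limma adjusted p = 0.7876). In this comparison 2.63% of 76 tested miRNAs passed, and none did with the animal as a block. With 1 size factor over the 4 tables the 2 values were -1.98 (limma adjusted p = 0.0011) and -2.18 (limma adjusted p = 0.0020), where the median over all miRNAs was -1.98 and 70 of 75 tested were called.

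**Figure D3:**
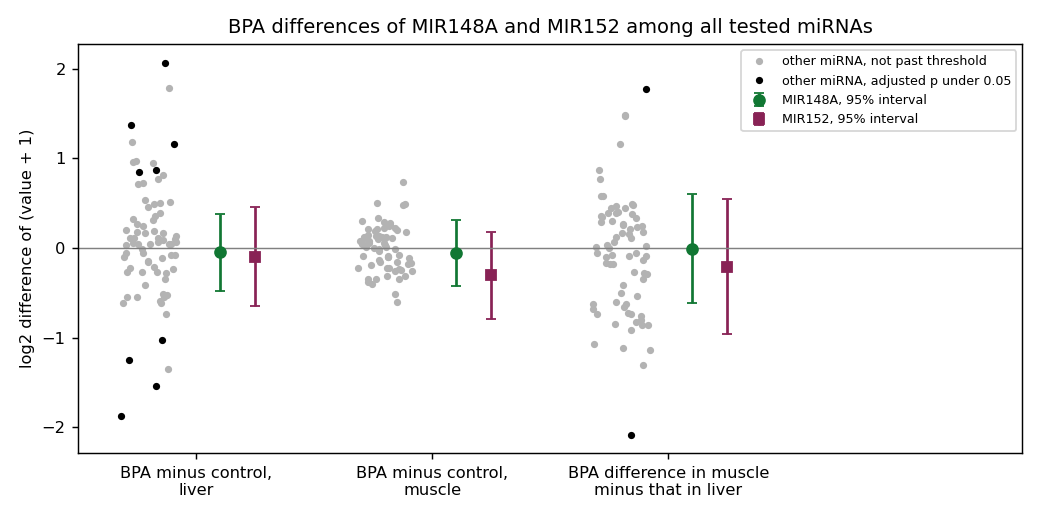
BPA differences in log2(deposited value + 1) for all tested miRNAs (grey, or black where the adjusted p was under 0.05) beside MIR148A (green circles) and MIR152 (purple squares) with 95% intervals, in liver, in muscle and as muscle minus liver. The intervals of both members include 0 in all 3 comparisons.

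The spread among BPA animals was wider than among controls for MIR152. The SD of its log2 normalized count was 0.14 in control and 0.52 in BPA livers, a ratio of 3.83 that ranked 2nd of 78 miRNAs, with 39 miRNAs over a ratio of 1. In muscle the SD was 0.10 in controls and 0.52 in BPA animals, a ratio of 5.09 and 4th of 70, where the median ratio was 1.58 and 55 miRNAs had a ratio over 1. For MIR148A the SDs were 0.22 and 0.41 in liver (ratio 1.85, 15th) and 0.28 and 0.26 in muscle (ratio 0.915, 58th). Without muscle 984 the MIR152 ratio in muscle was 1.93, so that library carries most of the spread there. Leaving out any 1 BPA liver gave 2.94 to 4.42 in liver. Each of these choices keeps 910 (1776 normalized counts) or 918 (2266), and 977 (3710) or 984 (3637). They therefore do not show the spread within either pair. The liver ratio of MIR148A was 1.12 without BPA liver 984. These are descriptions of 4 libraries a group, with no test.

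The members moved together among BPA livers, and the library codes moved with them. Against the geometric mean of the 8 livers, BPA liver 910 was at -0.35 log2 units for MIR148A and -0.66 for MIR152, and 918 at -0.34 and -0.31. BPA liver 977 was at 0.08 and 0.40, and 984 at 0.51 and 0.37. Livers 910 and 918 carry the codes 95 and 96, and muscle 984, at -0.35 and -0.90 against the muscles, carries 97. The lowest BPA values of both members in each tissue are thus in the 3 libraries of that code range. Animal 984 was the highest liver for MIR148A and the lowest muscle for both members, and animal 910 was the lowest liver for both and the highest muscle for MIR152.

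Many other miRNAs followed the same libraries. The 2 lowest livers were those coded 95 and 96 for 19 of 78 tested miRNAs, the 2 highest for 13. The muscle coded 97 was the lowest for 17 of 70 tested miRNAs and the highest for 25. Both members are among 7 of 70 that were lowest in those livers and in that muscle. Among codes up to 79, liver holds 1 control and 2 BPA libraries, with MIR148A at 36621 against 42337 and 56888 and MIR152 at 3092 against 3710 and 3637, too few for a test. In the muscles of that range, 4 controls and 3 BPA animals, the differences were 0.05 for MIR148A and -0.06 for MIR152. With the code range as a covariate the liver differences were 0.42 for MIR148A and 0.25 for MIR152, which rest on the same 1 control and 2 BPA livers, since the other ranges hold 1 treatment each. Without livers 910 and 918, a choice made after seeing the data, they were 0.27 (limma adjusted p = 0.4077) and 0.34 (limma adjusted p = 0.3683). The part of the code range in the spread was not tested further.

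The 2 fibroblast and smooth muscle markers were lower in BPA livers 910 and 918 and BPA muscle 984 than in the other BPA libraries of each tissue. The sum of MIR143 and MIR199A was 7999 normalized counts in BPA muscle 984 and between 15907 and 28471 in the other 7 muscles. In BPA livers it was 27447 (910), 27611 (918), 43100 (977) and 52968 (984), so the 2 livers low in both members were also the lower BPA livers for these markers. Control livers lay between 26709 and 40182, so neither of these 2 livers was below all controls for the sum. In liver 910, MIR143 (18039) lay below all control livers (19513 to 31283), while MIR199A (9408) lay above all of them (5860 to 8899). In liver 918 each marker lay within the control range. As background, muscle 984 was the lowest muscle for 17 of 70 tested miRNAs. Livers 910 and 918 were the 2 lowest livers for 19 of 78, which does not hold for these markers. MIR143 in liver and MIR199A in muscle are also among the miRNAs nearest to MIR152 in these same libraries, as ranked below. The comparison therefore adds no separate evidence on these cells. The other marker lists were not compared library by library. The part of these cells in the values of MIR148A and MIR152 was not tested.

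**Figure D4:**
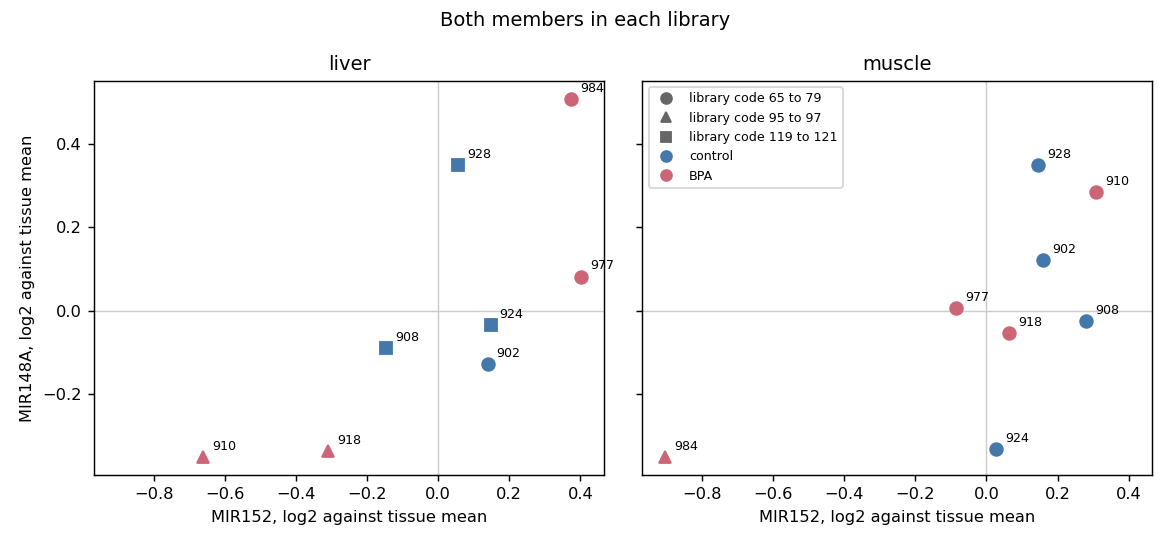
MIR148A against MIR152 in each library, both as log2 differences from the geometric mean of the 8 libraries of the tissue, for liver (left) and muscle (right), with controls in blue, BPA in red and point shape for the range of the library code. Livers 910 and 918 and muscle 984, drawn as triangles, lie at the lower left of their panels.

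The miRNAs most like each member were ranked by the SD over libraries of the log2 ratio of deposited value + 1, which size factors touch only through the added 1. In the 8 livers the nearest to MIR148A were MIR17 (SD 0.16), MIR21 (0.23) and MIR152 itself (0.24), of 73 compared with a median SD of 0.50. The nearest to MIR152 in liver were MIR23A (0.19), MIR148A (0.24) and MIR143 (0.25), where the median was 0.52. In the 8 muscles MIR148A was nearest to MIR99A (0.16), MIR23A (0.19) and MIR379 (0.22), with a median of 0.40, and MIR152 was 11th at 0.29. MIR152 in muscle was nearest to MIR199A (0.14), MIR379 (0.18) and MIR103 (0.22), with a median of 0.50, and MIR148A was 5th. Each other's pattern was therefore closer in rank in liver than in muscle, as a description of 8 libraries, in each of which all miRNAs share the library's depth and size factor.

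Over all 16 libraries the tissue contrast dominates the measure. MIR148A was then nearest to MIR494 (0.70), MIR411A (0.74) and MIR194 (0.78), of 71 compared with a median of 2.15, and MIR152 was 6th at 0.85. MIR152 was nearest to MIR30A (0.37), MIR494 (0.41) and MIR411A (0.43), with a median of 1.46, and MIR148A was 15th. MIR30A, MIR494 and MIR411A were themselves lower in muscle, by log2 differences of -3.27, -3.55 and -3.62 on the deposited scale.

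Other miRNAs with related targets were counted from lists. Of miRNAs that target DNA methyltransferases, here the miR-29 family known in human cells to target DNMT3A and DNMT3B, 3 of 5 names are in the table, and MIR29B-1 and MIR29B-2 hold identical values. None of the 3 passed in the BPA comparison of liver (median difference -0.61, against 0.05 over all miRNAs) or of muscle (median -0.22, against 0.01). MIR29A, at -0.52 in liver, had a limma adjusted p of 0.0790. Between tissues all 3 passed as lower in muscle on the deposited scale, MIR29A at -0.74 (limma adjusted p = 1.87e-06), where 60.5% of all tested miRNAs did so. After rescaling, where 57 of 75 tested miRNAs passed in either direction, 0 of 3 passed and MIR29A was at -0.15 (limma adjusted p = 0.19). Unlike the difference of MIR148A and MIR152, that of the miR-29 rows thus rests on the scale.

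Of the miRNAs of cholesterol and lipid transport, 7 of 20 names are in the table and 6 were tested. In BPA livers 1 of them passed, MIR26B, at -1.03 (limma adjusted p = 0.0055) where 5.13% of all tested miRNAs passed as lower, and with 1 size factor over the 4 tables it was at 0.44 (limma adjusted p = 0.23). The other 5 did not pass in liver and none of 6 passed in muscle. Between tissues 3 passed as higher in muscle, led by MIR10B at 4.45 (22.4% of all tested passed as higher), and 2 as lower on the deposited scale (60.5% of all tested). After rescaling, where 57 of 75 tested miRNAs passed in either direction, 4 passed as higher and 1 as lower. Of the myogenic miRNAs, 6 of 24 names are in the table, and none of the 6 passed in the BPA comparison of either tissue. Between tissues 3 of these passed as higher in muscle, MIR133 among them, and 3 as lower on the deposited scale (22.4% and 60.5% of all tested). After rescaling 4 passed as higher and 0 as lower. The 57 of 75 over all tested holds both directions. The share passing as higher alone after rescaling was not counted, so neither list's count of higher rows has a matching background. With 1 size factor over the 4 tables the median BPA minus control difference over all miRNAs in liver was 1.51, and 68 of 82 tested passed in either direction. There 4 of 6 myogenic rows, 5 of 6 cholesterol and lipid rows and 1 of 3 miR-29 rows (MIR29A at 0.95, limma adjusted p = 0.041) passed as higher in BPA livers. These counts with 1 size factor are near or below the share of all miRNAs that passed there in either direction.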

How the data were processed

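The values the authors deposited are normalized counts (a signal): reads per miRNA, each library scaled by its own size factor. Per the submitters' processing notes, cutadapt 3.2, STAR 2.6.0c and featureCounts 1.6.1 were used, with no roles given. The sources used here give no build, annotation or tool for normalization. Per the labels' protocols, Trizol and RNeasy were used for RNA and a NEBNext small RNA kit for libraries.

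In all 16 libraries 100% of the miRNA values were whole multiples of 1 step within 0.001, so reads were recovered, and shares, intervals and ratios use them. The main test was limma 3.58.1 in R 4.3.3, with its trend option, on log2(value + 1), a scale that understates the change of low miRNAs. It took miRNAs with a mean of at least 5, two-sided, with Benjamini-Hochberg adjustment over all miRNAs tested and a threshold of 0.05. BPA was compared within each tissue, and the tissue difference and interaction used a 4-group fit of all libraries. edgeR 4.0.16 and DESeq2 1.42.0 on the recovered reads, other pseudocounts, filters, scalings, thinning, the code range, a replicate block and leaving out libraries were alternatives. Scripts were tested on simulated data.

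The animal number marks the same sheep in both tissues, so numbers pair the libraries, although deviations of a liver and a muscle of 1 animal correlated at -0.68 to 0.44 over 76 miRNAs, and in 0 of 8 animals was the own muscle the closest. The miRNAs named are both members, the 3 nearest to each by likeness (mean at least 10), up to 3 examples of each list, and MIR133 and MIR194 as tissue checks, with other markers named beside results. The members and lists were chosen with earlier results of these data known. Gene names were matched for 105 of 105 miRNAs. Each library is 1 tissue of 1 animal.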

Additional observations from a re-analysis of the deposited data

Results flagged for a closer look

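In 36 checks of groups of 4 libraries for a value far from the others, over the normalized counts, their log2 values, the shares and the ratio, 2 stood out, and chance flags about 1 in 20 groups. MIR148A in control livers had a gap of 0.8291 of the group's range, just past the limit, because liver 928 stood at 50982 normalized counts and the others between 36621 and 39075. On the log2 scale the gap was 0.804, and as a share of miRNA reads 0.544, both under the limit. The share of MIR152 in control muscles had a gap of 0.871 of the range, because muscle 924 stood at 0.0485% of miRNA reads and the others between 0.0562% and 0.0573%. The exact 95% interval of muscle 924 (0.0425 to 0.0550) overlaps those of the other control muscles, the lowest of which starts at 0.0496%.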

How the results depend on the processing

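The tissue differences of both members kept their direction and passed the threshold under all 20 alternatives, from -5.54 to -3.99 log2 units for MIR148A and from -3.97 to -2.40 for MIR152, and with the replicate block the limma adjusted p values were 6.21e-11 and 8.63e-08. The block left the interaction of both members unpassed and lowered the number of miRNAs called there from 2 to 0, as did no filter and thinning, with 1 called by edgeR. The BPA differences of the members lie near 0, so their sign is not stable. In liver they turned to 0.041 (MIR148A) and 0.028 (MIR152) with edgeR, 1.42 and 1.37 when 1 size factor served all 4 tables, 0.42 and 0.25 with the code range as covariate (in effect control liver 902 against BPA livers 977 and 984), and 0.27 and 0.34 without livers 910 and 918. In muscle MIR148A turned to 0.058 when scaled to miRNA reads and 0.051 with the code range, and 1 size factor gave -0.28 and -0.53 there, neither past the threshold. The interaction of MIR148A turned to 0.0044 with DESeq2, 0.093 scaled to miRNA reads, 0.036 thinned, and 0.034 after rescaling, with or without the block, and was -1.98 (MIR152 -2.18) with 1 size factor. Leaving out 1 library at a time gave -0.23 to 0.060 (MIR148A) and -0.25 to 0.11 (MIR152) in liver and -0.18 to 0.051 and -0.46 to -0.06 in muscle. Leaving out 1 animal gave -0.22 to 0.28 and -0.57 to 0.18 for the interaction. The number of miRNAs called in liver was 9, against 15 in the 4-group fit, 68 with 1 size factor, 3 without livers 910 and 918, 5 without 910, 4 without 918 and 15 without 984, and 0 to 9 for the interaction (9 without animal 984, 70 with 1 size factor). The cause was not tested. The within-library ratio kept its direction between tissues throughout. Depth limits MIR152 in muscle most, at 176 to 524 reads.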
